A study of Mus musculus with 8 samples.

Results

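The genes described here were 9 Toll-like receptors of the mouse, Tlr1, Tlr2, Tlr3, Tlr4, Tlr6, Tlr7, Tlr8, Tlr9 and Tlr13, and the adaptor gene Myd88. These 10 genes were chosen by their symbols among the 27179 genes in the deposited expression table, and all 10 were found. They were measured by bulk RNA sequencing of tumors of C26, a mouse colon carcinoma that causes cachexia, the wasting of body weight in cancer. The cxC26 scr tumors (n = 4, scr in what follows) grew from the cachectic C26 line with a scrambled guide RNA and Il6 intact. The cxC26 IL-6 KO s1 tumors (n = 4, KO s1 in what follows) grew from 1 subclone of the same line in which CRISPR/Cas9 had disrupted Il6, the gene for interleukin 6. The KO s1 cells had received the lentiviral Cas9 vector and puromycin selection. The study describes the scr cells as a CRISPR/Cas9 control with a scrambled guide RNA. Cells of both groups were grown under the skin of adult male CD2F1 mice, whose own cells kept Il6. Each tumor was collected once its mouse was cachectic, with a weight loss above 15%. In the CD2F1 experiments of the study in which KO s1 tumors reached a similar size, more KO s1 cells were injected and their tumors were collected later. The inoculum and day of the sequenced tumors are not given in the sources used here. Genotype, clone, inoculum and time cannot be told apart in this design.

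Toll-like receptors are sensors of the innate immune system, carried mainly by macrophages, dendritic cells and other leukocytes, that recognise molecules of microbes and of damaged cells. Tlr1, Tlr2, Tlr4 and Tlr6 sit on the cell surface and bind lipids and lipoproteins, whereas Tlr3, Tlr7, Tlr8, Tlr9 and Tlr13 sit in endosomes and bind nucleic acids. All of the 9 receptors except Tlr3 signal through Myd88, which assembles IRAK kinases and leads to the activation of NF-kB, and Tlr3 signals through the adaptor Ticam1 (TRIF), which Tlr4 also uses. In macrophages the outcome includes the transcription of cytokine genes, Il6 among them.

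On the GRCm38.p6 build, the mm10 assembly to which the authors aligned their reads, 2 pairs of the receptors are neighbours. Tlr1 (chr5:64924680-64933600, minus strand) lies 19.5 kb from Tlr6 (chr5:64953092-64970942, minus strand). On the X chromosome Tlr8 (chrX:167241123-167264329, minus strand) lies 39.1 kb from Tlr7 (chrX:167303380-167330574, minus strand), and Tlr13 (chrX:106143275-106160493, plus strand) stands apart from both. The remaining genes are Tlr2 (chr3:83836272-83841824, minus strand), Tlr3 (chr8:45395665-45411075, minus strand), Tlr4 (chr4:66827551-66846581, plus strand), Tlr9 (chr9:106222598-106226876, plus strand) and Myd88 (chr9:119335934-119340018, minus strand). Tlr1 and Tlr6 are near-identical over part of their coding sequence. The longest identical run of their transcripts was 229 bases, and 8.85% of the 100-base stretches of the Tlr1 transcript also occurred in Tlr6, so that their read counts are uncertain to that extent. The other 8 genes shared no such stretch with one another or with this pair.

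Because several of these genes are known targets of interferons and cytokines, the 250 bases before their start sites in RefSeq (GRCm38.p6) were searched on both strands. There were 10 windows for 8 of the 10 genes, and Tlr4 and Tlr7 were not matched. The motifs were the interferon-stimulated response element (ISRE, searched as 2 copies of TTTC with any 2 bases between them), the STAT-binding GAS element (TTCNNNGAA), the NF-kB motif and the PU.1 motif GAGGAAGT. An ISRE was found in Myd88 and Tlr6, and in 2.98% of all 32851 promoters. A GAS element was found in Myd88, Tlr1 and Tlr8, and in 7.02% of all promoters. The NF-kB motif occurred in Tlr2 and Tlr3 (7.25% of all promoters) and the PU.1 motif in Tlr1 (2.44%). Matches are given by gene and shares by window, and Tlr1 and Tlr6 had 2 windows each. The windows with the Tlr1 GAS match and the Tlr2 and Tlr3 NF-kB matches were mostly annotated exon (211, 159 and 178 of 250 bases). Stretches around the ISRE and GAS matches that lie outside annotated exons are shown because they are the letters on which these statements rest. They are written 5′ to 3′ on the strand of the gene, with the matched letters in capitals.
Myd88 (chr9:119340042-119340099): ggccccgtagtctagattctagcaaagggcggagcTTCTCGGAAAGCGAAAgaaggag
Tlr6 (chr5:64959232-64959317): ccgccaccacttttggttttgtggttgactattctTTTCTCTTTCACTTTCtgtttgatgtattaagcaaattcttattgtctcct
Tlr8 (chrX:167264392-167264470): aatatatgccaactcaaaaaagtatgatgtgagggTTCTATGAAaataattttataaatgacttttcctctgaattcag
In Myd88 the GAS match, which begins at position -46 from the start site, overlaps the ISRE match, which lies on the opposite strand. In Tlr6 the capitals hold 2 overlapping ISRE matches, the first of them at position -116 from a start site that lies inside the gene. The Tlr8 match begins at position -106 from the start site. A match is a description of the letters in these windows and not evidence that a factor binds there.

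The targeted gene was checked first. Il6 had 356, 326, 376 and 438 reads in the 4 scr tumors and 64, 56, 86 and 59 reads in the 4 KO s1 tumors, which gave -2.45 ± 0.16 on the log2 scale (SE, adjusted p = 1.76e-06 in limma). The depth was 14158989 to 17048062 reads per tumor, and 13262 genes with a level of 1 CPM (reads scaled to library size) or more in at least 4 of the 8 tumors were tested. Of the markers of epithelial and colon carcinoma cells, Krt20 was high in both groups (10.20 and 10.42 log2 CPM), whereas Epcam had at most 14 reads in any tumor and Krt19 and Vil1 had 2 and 10 reads over all 8 tumors. KO s1 replicate 1 had the highest mean over 5 pan-leukocyte markers, 7.17 log2 CPM against 6.21 to 6.55 in the other 3 tumors of its group. The same library stood apart by Dixon's criterion in the NK and cytotoxic markers, with a mean of 3.25 log2 CPM (others 1.02 to 1.12), and in the mast cell markers, with 2.23 (others 4.49 to 4.62). No source names separate batches.

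Of the 10 genes, 7 rose in the KO s1 tumors (limma, adjusted p-value under 0.05). None fell, and at an unadjusted p-value under 0.05 the counts were 8 higher and 0 lower. Among all tested genes 39.8% were called, 19.1% higher and 20.7% lower. The means of all 10 genes were higher in the KO s1 tumors, as were those of 49.7% of all tested genes. Their log2 fold changes had a median of 1.00 (range 0.30 to 1.42), beside -0.00289 over all tested genes. The groups did not overlap for 5 of the 10 genes and for 37.1% of all tested genes. By role, the 5 endosomal receptors all rose, with a median of 1.03, and 1 of the 4 surface receptors, Tlr2, rose, with a median of 0.50 over the 4. This split rests in part on calls near the threshold in limma. Tlr9 (adjusted p = 0.0404) lost its call under 9 of 16 alternatives, and Tlr6 (adjusted p = 0.0584) missed it by little. Leaving out KO s1 replicate 1 left 6 of the 10 genes called. The log2 fold changes without that library were 1.01 for Tlr3, 0.88 for Tlr7, 0.99 for Tlr8, 0.82 for Tlr9, 0.89 for Tlr13, 1.22 for Tlr2, 0.12 for Tlr1, 0.49 for Tlr6, 0.29 for Tlr4 and 0.39 for Myd88. In bulk tumor RNA a change in the number of cells that carry a receptor and a change in its RNA per cell cannot be told apart.

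**Figure D1:**
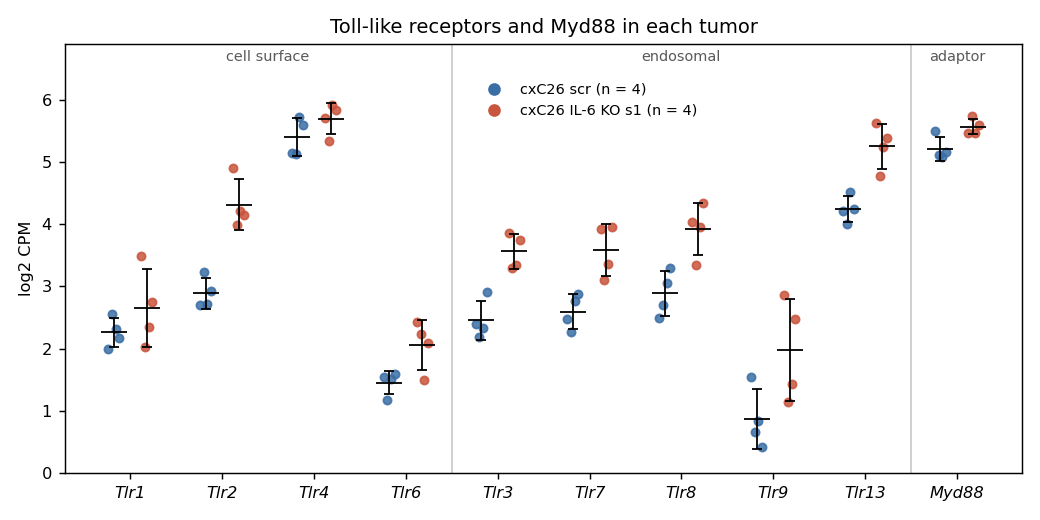
Level of each gene in each tumor in log2 CPM (y axis), with the surface receptors, the endosomal receptors and the adaptor from left to right. Points are tumors (4 per group), the long bar is the mean and the error bars the SD. Tlr2, Tlr3, Tlr7, Tlr8 and Tlr13 of the KO s1 tumors lie above every scr tumor, and the groups of the other 5 genes overlap.

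Among the endosomal receptors, Tlr3 recognises double-stranded RNA. Its levels were 2.39, 2.18, 2.33 and 2.91 log2 CPM in the scr tumors and 3.86, 3.30, 3.35 and 3.75 in the KO s1 tumors. Every KO s1 tumor was above every scr tumor, and the same separation in this direction was seen for 17.8% of all tested genes. The difference was 1.11 ± 0.20 on the log2 scale (SE, n = 4 per group), or 2.16-fold (95% interval 1.60 to 2.92), with an adjusted p of 0.00110. An antisense gene, Gm45542, overlaps 381 exonic bases of Tlr3 and has no row in the table.

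Tlr7 and Tlr8, the neighbouring receptors for single-stranded RNA, rose to a like extent. Tlr7 was at 2.47, 2.26, 2.76 and 2.88 log2 CPM in the scr tumors and at 3.92, 3.10, 3.37 and 3.95 in the KO s1 tumors. The groups did not overlap, and the fold change was 1.99 (log2 fold change 0.99 ± 0.22 SE, adjusted p = 0.00431). Tlr8 was at 2.49, 2.70, 3.06 and 3.30 log2 CPM in the scr tumors and at 4.04, 3.34, 3.95 and 4.35 in the KO s1 tumors. Here too the groups did not overlap, although scr replicate 4 and KO s1 replicate 2 were separated by only a small step. The fold change of Tlr8 was 2.05 (log2 fold change 1.03 ± 0.23 SE, adjusted p = 0.00433).

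Tlr13, the mouse receptor for bacterial ribosomal RNA, had the highest level of the endosomal receptors. It was at 4.22, 4.01, 4.51 and 4.24 log2 CPM in the scr tumors and at 5.62, 4.77, 5.24 and 5.39 in the KO s1 tumors, without overlap. The change was 2.02-fold (95% interval 1.56 to 2.61, log2 fold change 1.01 ± 0.17 SE, adjusted p = 0.000824).

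Tlr9, the receptor for unmethylated CpG DNA, had the lowest mean of the receptors in the scr tumors and the largest SD in both groups. It had 48, 25, 25 and 20 reads in the scr tumors (1.54, 0.66, 0.84 and 0.41 log2 CPM) and 117, 30, 42 and 80 reads in the KO s1 tumors (2.85, 1.14, 1.43 and 2.47 log2 CPM). Replicates 2 and 3 of the KO s1 group lay below the highest scr tumor, so that the groups overlapped. The log2 fold change of 1.11 ± 0.39 (SE) passed the threshold with an adjusted p of 0.0404. The call was lost without scr replicate 2, 3 or 4 (adjusted p = 0.0907, 0.0796 and 0.107 in limma) and without KO s1 replicate 1 or 4 (0.0964 and 0.103).

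Of the surface receptors, Tlr2, which pairs with Tlr1 or Tlr6 to bind bacterial lipoproteins, had the largest change of the 10 genes. Its reads numbered 108, 152, 93 and 116 in the scr tumors and 488, 219, 292 and 256 in the KO s1 tumors. In log2 CPM these were 2.70, 3.24, 2.72 and 2.92 against 4.91, 3.99, 4.21 and 4.15. The groups were well separated, and the highest value was again that of KO s1 replicate 1. The change was 2.68-fold (95% interval 1.97 to 3.64, log2 fold change 1.42 ± 0.20 SE, adjusted p = 0.000305), and it was 1.22 on the log2 scale without that library (adjusted p = 0.000169).

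The partners of Tlr2 did not pass the test. Tlr1 was at 1.99, 2.56, 2.31 and 2.17 log2 CPM in the scr tumors and at 3.49, 2.03, 2.35 and 2.75 in the KO s1 tumors. The groups overlapped and KO s1 replicate 1 was well above the rest, with a log2 fold change of 0.40 (95% interval -0.22 to 1.01, adjusted p = 0.286) that was 0.12 without that library. Tlr6 was at 1.54, 1.17, 1.51 and 1.60 log2 CPM in the scr tumors and at 2.43, 2.24, 1.50 and 2.09 in the KO s1 tumors. In this group only replicate 3 lay within the scr range, and the log2 fold change of 0.61 (95% interval 0.09 to 1.12) had an adjusted p of 0.0584. It became 0.0180 without replicate 3, with a log2 fold change of 0.80, and lay between 0.0763 and 0.141 in limma with any other tumor left out, KO s1 replicate 1 among them (log2 fold change 0.49, adjusted p = 0.137).

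Tlr4, the receptor for lipopolysaccharide, was the most abundant of the receptors and had the smallest change. It was at 5.15, 5.14, 5.73 and 5.59 log2 CPM in the scr tumors and at 5.70, 5.34, 5.92 and 5.83 in the KO s1 tumors, with overlap. The log2 fold change was 0.30 with an adjusted p of 0.162. Its 95% interval, -0.05 to 0.65, leaves room for a fold change of up to 1.56.

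Myd88 was at 5.50, 5.11, 5.08 and 5.16 log2 CPM in the scr tumors and at 5.47, 5.73, 5.47 and 5.60 in the KO s1 tumors. The first scr tumor stood above the other 3 and overlapped the second group. Myd88 rose 1.28-fold (95% interval 1.08 to 1.52, log2 fold change 0.36 ± 0.11 SE, adjusted p = 0.0260), and its call was lost without scr replicate 2, 3 or 4 (adjusted p = 0.0695, 0.0776 and 0.0682 in limma) and without KO s1 replicate 2 or 4 (0.0708 and 0.0534). Its value is also uncertain because the antisense gene Acaa1a, a peroxisomal thiolase, shares 290 exonic bases with it and rose by a log2 fold change of 0.57 ± 0.10 (SE, adjusted p = 0.00118). The strand setting of the counting is not given in the sources used here, and without it reads from the shared bases cannot be told apart.

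**Figure D2:**
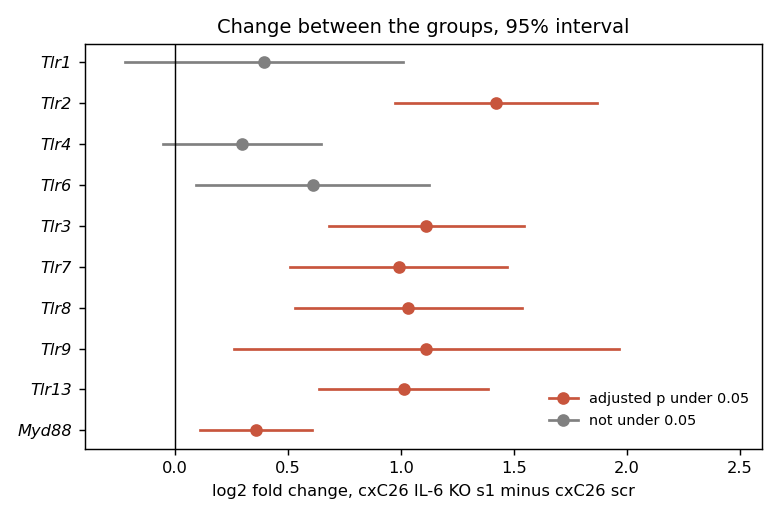
Log2 fold change of each gene between the groups (x axis, cxC26 IL-6 KO s1 minus cxC26 scr; points) with its 95% interval (lines). The intervals of the 7 genes in red, called at an adjusted p under 0.05 in limma, lie above 0. The interval of Tlr6 also lies above 0 without passing the adjusted threshold, and those of Tlr1 and Tlr4 include 0.

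To compare levels between genes, CPM was divided by the exonic length of each gene. In the scr tumors Myd88 was highest with 14.4 CPM per kb, followed by Tlr4 with 7.60 and Tlr13 with 4.40, and each of these 3 was separated from the next by ranges that did not overlap. Tlr2 (2.45), Tlr8 (2.05), Tlr7 (1.47), Tlr1 (1.42) and Tlr3 (1.05 CPM per kb) followed, each overlapping its neighbour among these 5. Tlr6 (0.727) and Tlr9 (0.513) were lowest, below the range of Tlr3, and overlapped each other.

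In the KO s1 tumors Myd88 was again highest with 18.4 CPM per kb. All neighbours in the order below it overlapped. Tlr4 (9.34) and Tlr13 (8.87 CPM per kb), which were separated in the scr tumors, had overlapping ranges here, and Tlr2 reached 6.59. The lower part of the order held Tlr8 (4.21), Tlr7 (2.93), Tlr3 (2.27), Tlr1 (1.87), Tlr9 (1.12) and Tlr6 (1.11 CPM per kb).

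Within the KO s1 group the receptors tended to rank the tumors alike. Replicate 1 had the highest level of 6 of the 9 receptors, and replicate 2 had the lowest level of 8 of them. In the scr group replicate 4 was highest for 4 receptors and replicate 2 lowest for 5.

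As a description without a test, levels were correlated over the 8 tumors after the group means had been subtracted; the points share libraries. With the mean of the macrophage and monocyte markers, Tlr1 had the highest coefficient (Pearson r = 0.95), followed by Tlr2 (0.87) and Tlr13 (0.79), and Myd88 had -0.58. Other marker lists gave values of the same size, for Tlr1 0.97 with the pan-leukocyte markers and 0.90 with the conventional dendritic cell markers, and for Tlr2 0.90 with the pan-leukocyte markers, 0.90 with the NK and cytotoxic markers and 0.85 with the T cell markers. With the mast cell markers the values were negative, -0.80 for Tlr1 and -0.79 for Tlr2. KO s1 replicate 1, the library with the highest pan-leukocyte mean and the lowest mast cell marker mean of its group, is 1 of the 8 points in each. Among the receptors themselves the closest were Tlr1 with Tlr2 (0.89), Tlr7 with Tlr8 (0.87) and Tlr3 with Tlr7 (0.86). Over all tested genes, the pattern most like that of Tlr1 was Arhgap30 (r = 0.99), that most like Tlr7 was Ripk1 (0.99), a kinase of death receptor and NF-kB signalling, and that most like Tlr9 was Znfx1 (0.98). With 8 points and 13262 genes, coefficients of this size were found for each of the 10 genes: the nearest gene had r = 0.99 for Tlr2 (Mgme1), Tlr4 (Pdp1) and Tlr8 (Mob3c), 0.98 for Tlr13 (Zfp334), 0.97 for Tlr3 (Nectin4) and Myd88 (Rrs1), and 0.96 for Tlr6 (Extl2).

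Because leukocytes are the main carriers of these receptors, markers of the cell types in the tumor were read beside them. All 5 pan-leukocyte markers (Ptprc, Coro1a, Laptm5, Lcp1 and Cd53) rose, with a median log2 fold change of 1.03 and a summed level of 207 to 245 CPM in the scr tumors and of 405 to 779 CPM in the KO s1 tumors. Of 12 macrophage and monocyte markers 11 rose, with a median of 1.23 and a summed level of 815 to 1058 CPM against 1587 to 3155 CPM. Among them were Ccr2, a chemokine receptor of inflammatory monocytes (log2 fold change 2.10), Adgre1 (F4/80, 1.50) and Csf1r, the receptor for macrophage colony-stimulating factor (1.25). Mertk, a receptor for the uptake of dying cells, fell by 0.36 (adjusted p = 0.00983 in limma). Beside these counts, 19.1% of all tested genes were called higher and 20.7% lower.

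Markers of other cell types that carry Toll-like receptors moved less evenly. Their counts stand beside 19.1% of all tested genes called higher and 20.7% lower. Of 8 conventional dendritic cell markers 2 were tested and both fell, Zbtb46 by 2.42 and Itgax by 1.89 on the log2 scale, with a summed level of 79.1 to 108 CPM in the scr tumors and of 18.6 to 64.9 CPM in the KO s1 tumors. Itgax held 82.0% of the reads of this list. Some markers below the filter had more reads in the KO s1 tumors and were not tested. Xcr1 had 5, 4, 2 and 2 reads in the scr tumors and 17, 6, 9 and 10 in the KO s1 tumors, and Ccr7 had 9, 11, 9 and 4 reads against 56, 23, 13 and 18. Flt3, at 8, 11, 1 and 9 reads against 11, 14, 23 and 16, overlapped by a narrow margin. Of 7 neutrophil markers 4 were tested, of which S100a8 rose and Mmp8 fell (adjusted p = 0.0361, and 0.0530 to 0.108 with replicate 2, 3 or 4 of either group left out), with sums of 11.6 to 23.7 CPM and 16.1 to 29.8 CPM, and Ly6g, which defines these cells, had 3 reads over all 8 tumors. Of 6 plasmacytoid dendritic cell markers only Cox6a2 was tested and rose (not called without scr replicate 4 or KO s1 replicate 4, adjusted p = 0.0566 and 0.0662), with sums of 1.83 to 3.95 CPM and 3.75 to 5.94 CPM, and the defining Siglech had 94 reads over all tumors. Of 6 B cell markers 1 was tested and not called, with sums of 1.02 to 2.18 CPM and 2.02 to 8.74 CPM, and Pax5 had 3 reads over all tumors.

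The tested T cell, NK and cytotoxic, and mast cell markers rose. Among all tested genes 19.1% were called higher and 20.7% lower, which applies to each count in this paragraph. All 5 tested of 7 T cell markers (summed level 2.39 to 4.57 CPM in the scr tumors, 11.1 to 22.5 CPM in the KO s1 tumors), all 3 tested of 6 NK and cytotoxic markers (0.845 to 5.31 and 9.89 to 42.1 CPM) and all 5 tested of 6 mast cell markers (9.14 to 13.1 and 24.0 to 142 CPM) were called higher. The tested T cell markers had a mean of -1.71 log2 CPM in the scr tumors and 1.30 in the KO s1 tumors. Those of the NK and cytotoxic markers were -2.05 and 1.62. At such levels a gene can pass the filter through the KO s1 tumors alone, so that these counts depend on it. Prf1 was not called without scr replicate 1, 3 or 4 or KO s1 replicate 1 or 3 (adjusted p = 0.0527 to 0.103 in limma). Of 6 endothelial markers 1 fell, with sums of 101 to 155 CPM and 108 to 134 CPM. Of 7 fibroblast markers 1 rose and 3 fell (7784 to 10322 and 5555 to 8704 CPM), and of 8 epithelial markers 4 were tested, of which 2 rose and 1 fell (1081 to 1291 and 1325 to 1450 CPM). Krt20, with a log2 fold change of 0.21 that was not called, held most of the epithelial sum. The called epithelial genes changed by more than Krt20, which the sum does not show. The part of the lymphocyte, mast, dendritic, endothelial, fibroblast and tumor cells in the receptor values was not tested.

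Levels were also expressed relative to the macrophage markers, which does not separate the number of cells from the RNA per cell. The mean log2 CPM of the 12 markers was subtracted from that of each gene in the same tumor, and the groups were compared by a two-sided exact permutation test over all 70 splits of the 8 tumors, whose smallest possible p is 0.0286. At least 6 of the 10 genes would have to reach that p for any of them to pass Benjamini-Hochberg adjustment over the 10. None passed, and at an unadjusted p under 0.05 the counts were 0 higher and 3 lower. The 5 endosomal receptors, which had risen by 0.99 to 1.11 on the log2 scale, differed by 0.01 (Tlr3 and Tlr9), -0.07 (Tlr8), -0.09 (Tlr13) and -0.12 (Tlr7) relative to the markers, with overlapping groups and an exact p between 0.486 and 1. With single tumors left out the difference ranged from -0.10 (without scr replicate 2) to 0.16 (without scr replicate 4) for Tlr3 and from -0.18 (without KO s1 replicate 4) to 0.27 (without scr replicate 1) for Tlr9. The ranges were -0.24 to 0.07 for Tlr8, -0.26 to -0.01 for Tlr7 and -0.19 to -0.03 for Tlr13. With Csf1r alone as the denominator the 5 receptors differed by -0.14 (Tlr3 and Tlr9), -0.22 (Tlr8), -0.24 (Tlr13) and -0.26 (Tlr7), and with the pan-leukocyte markers by -0.02 (Tlr3 and Tlr9), -0.10, -0.12 and -0.14. Tlr2 differed by 0.31 relative to the markers (exact p = 0.0857, adjusted p = 0.214), by 0.17 relative to Csf1r and by 0.23 to 0.41 with single tumors left out. Tlr6 differed by -0.50 (exact p = 0.114, adjusted p = 0.229), and for both genes the groups overlapped.

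The 3 genes with lower values relative to the markers were Tlr4 (-0.23 ± 0.28 and -1.04 ± 0.34 in the scr group and the KO s1 group, SD, n = 4 each), Tlr1 (-3.37 ± 0.17 and -4.08 ± 0.30) and Myd88 (-0.42 ± 0.27 and -1.17 ± 0.47). Each of the 3 was lower in all 4 KO s1 tumors than in any scr tumor, for Myd88 by a narrow margin. The marker mean itself rose from 5.63 to 6.74 log2 CPM, whereas the median log2 fold change of all tested genes was -0.00289. A gene without a change is therefore lower relative to the markers. The share of all tested genes that is lower in this way was not computed. Before the subtraction the log2 fold changes of Tlr4, Tlr1 and Myd88 were 0.30, 0.40 and 0.36. Relative to the markers the differences of these 3 genes were -0.81, -0.71 and -0.75. Each had an exact p of 0.0286, the smallest that the permutations can give, and an adjusted p of 0.0952 over the 10 genes. With the pan-leukocyte markers as the denominator they were -0.84, -0.74 and -0.78, and with Csf1r alone -0.96, -0.86 and -0.89, again without overlap. These denominators rose too, the pan-leukocyte mean from 5.47 to 6.60 log2 CPM and Csf1r by 1.25. A change of denominator shifts the difference of every gene by the same amount, so that these values are not separate evidence. Without KO s1 replicate 1 the differences relative to the macrophage markers were -0.65, -0.82 and -0.55.

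**Figure D3:**
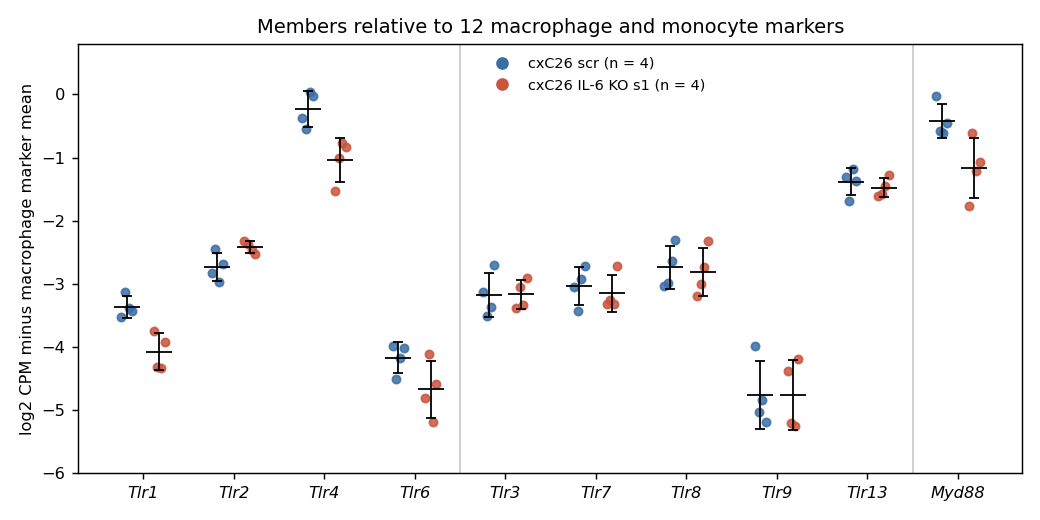
Level of each gene in each tumor relative to the mean of 12 macrophage and monocyte markers (y axis, difference in log2 CPM), drawn as in the plot of levels, with points for tumors, long bars for means and error bars for the SD. The groups overlap for the 5 endosomal receptors, Tlr2 and Tlr6, whereas the KO s1 tumors lie below every scr tumor for Tlr1, Tlr4 and Myd88. The marker mean itself was higher in the KO s1 tumors, so that a gene without a change lies lower there.

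The rest of the pathway was read from 8 lists with 102 genes, of which 90 were tested, 32 rose (35.6%) and 13 fell (14.4%), beside 19.1% and 20.7% of all tested genes. The lists were chosen with earlier results of these data known, and genes were counted by the same fit over all tested genes. Of the 3 Toll-like receptors outside the 10 genes, Tlr5, the receptor for flagellin, rose by 0.94 (adjusted p = 0.0249) from 44, 20, 18 and 20 reads in the scr tumors to 59, 36, 38 and 48 in the KO s1 tumors. The call of Tlr5 was lost without scr replicate 2, 3 or 4 or KO s1 replicate 1 or 4 (adjusted p = 0.0564 to 0.0664 in limma). Tlr11 and Tlr12 were below the filter. Tlr12 had 94 reads in KO s1 replicate 1 and 2 reads in each of the other 3 tumors of that group, against 6 to 17 reads in the scr tumors.

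Of 15 tested co-receptors and chaperones 7 rose (46.7%) and 1 fell (6.67%), beside 19.1% and 20.7% of all tested genes. The median log2 fold change was 0.28. Unc93b1, which carries the nucleic acid-sensing receptors from the endoplasmic reticulum to endosomes, rose by 1.34 (adjusted p = 0.000121), from 5.02 ± 0.11 to 6.36 ± 0.41 log2 CPM (SD, n = 4 each). Tasl, which links the endosomal receptors to Irf5, rose by 1.88 (adjusted p = 0.000222), and Slc15a4, the transporter that holds it in place, had a log2 fold change of -0.23 (adjusted p = 0.197). Cd180, a surface homologue of Tlr4, rose by 1.71 and its partner Ly86 by 0.75. The call of Ly86 held only without KO s1 replicate 2 when single tumors were left out, and without KO s1 replicate 1 its log2 fold change was 0.47 (adjusted p = 0.0875 in limma). Cd14, a co-receptor of Tlr4 and Tlr2, rose by 0.61, and the chaperone Hsp90b1 (gp96), needed to fold most of the receptors, by 0.60. Ly96 (MD-2), the lipopolysaccharide-binding partner of Tlr4, had a log2 fold change of 0.28 (adjusted p = 0.411). Lamp5 had no reads.

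Of the 4 other adaptors tested, 2 rose (50%, beside 19.1% of all tested genes), and the median was 0.71. Ticam2 (TRAM), which joins Tlr4 to Ticam1, rose by 1.79 (adjusted p = 0.00184), and Pik3ap1 (BCAP), an adaptor to phosphoinositide 3-kinase, by 1.29 (adjusted p = 0.00207). Tirap, which recruits Myd88 to Tlr2 and Tlr4, was at 5.17 and 5.18 log2 CPM in the groups, and Ticam1 at 3.90 and 4.03, and neither was called.

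The kinases and ubiquitin ligases that follow the adaptors held 4 genes that rose and 3 that fell among 22 tested, with a median of 0.09. These shares, 18.2% and 13.6%, lie below those of all tested genes, 19.1% and 20.7%. Irak2 rose by 1.02 (adjusted p = 0.00136), Peli3 by 0.86 (adjusted p = 0.0269, and 0.0514 to 0.0632 without scr replicate 1 or 2 or KO s1 replicate 2, 3 or 4) and Map3k8 (Tpl2), the kinase that leads to ERK, by 0.81 (adjusted p = 0.00455). The core kinases Irak1 and Irak4 had log2 fold changes of -0.01 and 0.11, and the ubiquitin ligase Traf6 one of 0.22, none of them called. Peli1 and Peli2, ligases of the Pellino family, fell by 0.70 and 0.77 on the log2 scale.

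Among the 10 transcription factors 4 rose (40%) and 1 fell (10%), beside 19.1% and 20.7% of all tested genes. The median was 0.36. Of the interferon regulatory factors, Irf7 rose by 2.01 (adjusted p = 0.00293), Irf5 by 1.19 (adjusted p = 0.000882) and Irf8 by 0.81 (adjusted p = 0.0333), whereas Irf3, which acts after Ticam1, fell by 0.39 on the log2 scale. Of the NF-kB subunits, Nfkb2 rose by 0.44, and Rela (0.27), Nfkb1 (0.08), Relb (0.05) and Rel (-0.41) were not called. Without scr replicate 1 or 3 Irf8 was not called (adjusted p = 0.0625 and 0.0988), nor was Nfkb2 without scr replicate 4 (adjusted p = 0.0512 in limma).

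Brakes on receptor signalling moved both ways. Among 19 tested, 7 were higher (36.8%) and 4 lower (21.1%), beside 19.1% and 20.7% of all tested genes. The median was 0.22. With single tumors left out 5 to 9 were called higher. Tnip3, among those counted as higher, passed the filter through the KO s1 tumors alone. Irak3 (IRAK-M), a kinase-inactive IRAK of macrophages, rose by 1.41 (adjusted p = 0.00337) and Trim30a by 0.79 (adjusted p = 0.00161). Socs3, a suppressor induced by interleukin 6 and its relatives, fell by 0.86 on the log2 scale (adjusted p = 0.00127), and Tollip fell by 0.45. Tnfaip3 (A20) and Nfkbia had log2 fold changes of -0.30 and 0.21 and were not called.

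Of 22 genes that macrophages transcribe after a receptor ligand, 14 were tested. Of these, 6 rose (42.9%) and 1, the edited gene Il6 itself, fell (7.14%), beside 19.1% and 20.7% of all tested genes. The median was 1.14 over the 14 genes. Acod1, the enzyme that makes itaconate, rose by 2.94 (adjusted p = 0.00534), or by 2.24 without KO s1 replicate 1, and Cxcl10, an interferon-induced chemokine, by 1.95 (adjusted p = 0.0258). The call of Cxcl10 was lost without scr replicate 2, 3 or 4 or KO s1 replicate 1 or 4 (adjusted p = 0.0501 to 0.0788 in limma). Tnf, Ccl2, Ccl4 and Il1rn also rose, by 1.55, 1.74, 1.90 and 1.27, Il1rn not being called without scr replicate 4 (adjusted p = 0.0524). Il1b (-0.37), Ptgs2 (-0.27), Cxcl1 (-0.17) and Nos2 (-0.14) were not called, and without KO s1 replicate 1 Il1b fell by 1.04 on the log2 scale (adjusted p = 0.0123 in limma). Ifnb1 and Il12a had 5 reads each over all 8 tumors.

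The receptors of the interleukin 1 family, which share Myd88 with the Toll-like receptors, were the list with the lowest median, -1.41 over 5 tested genes. Il1rl1 (ST2), the receptor for interleukin 33, was placed among the brakes and had a log2 fold change of -0.05 (adjusted p = 0.862), and with it the median of this family was -0.78 over 6 genes. Il1r1, the signalling receptor for interleukin 1, was at 7.56 ± 0.12 log2 CPM in the scr group and fell to 6.12 ± 0.18 (SD, n = 4 each, adjusted p = 2.49e-06). Il1rl2, the receptor for interleukin 36, fell by 1.93 on the log2 scale (adjusted p = 9.51e-06) and Il18rap by 1.41. Il18r1 rose by 1.73 (adjusted p = 0.000465), and the shared subunit Il1rap had a log2 fold change of -0.15 that was not called.

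**Figure D4:**
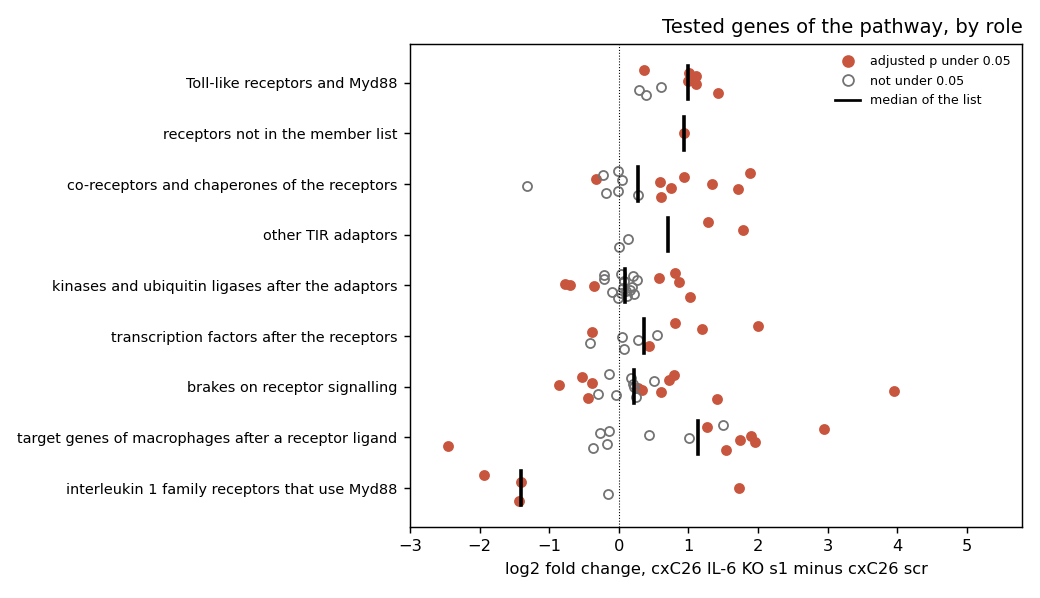
Log2 fold change between the groups (x axis, cxC26 IL-6 KO s1 minus cxC26 scr) of each tested gene of the Toll-like receptor pathway, by role (y axis). Filled points have an adjusted p under 0.05 in limma, open points do not, and black bars are medians. The median of the 10 genes is 1.00, that of the kinases after the adaptors 0.09, and that of the interleukin 1 family receptors -1.41.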

How the data were processed

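The values deposited by the authors are log2 CPM, 1 per gene and tumor, made with limma-voom from featureCounts read counts, after trimming with Trimmomatic and alignment with Hisat2 to mm10. Submitters' processing notes name bcl2fastq 2.17 for demultiplexing. Annotation and strand setting are not given in the sources used here. Whole reads were recovered from the log2 values (100% whole within 0.01) and gave 14158989 to 17048062 reads per tumor, which limits the precision of genes with few reads.

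Groups and replicate numbers came from sample titles. Nothing in the labels says which mouse each tumor came from, so that p-values measure the spread between these samples. The 13262 genes that reached 1 CPM in 4 or more of the 8 tumors were tested in R 4.3.3 with limma 3.58.1 (lmFit, eBayes with trend, no covariates) and Benjamini-Hochberg adjustment at 0.05. The procedure was also run on simulated counts with a fixed dispersion and few changed genes, which does not bear on calls near the threshold. Ratios to markers were compared by exact permutation. Positions and promoters came from RefSeq GRCm38.p6 and exonic lengths from GENCODE vM21. All 10 genes were named, with up to 3 called genes of each pathway list by size of change (mean of at least 0 log2 CPM), Il6, and for each of the 10 the 2 genes of most similar pattern, of which 1 is printed. Pathway and marker genes named beyond these were chosen after their values were seen. The 10 genes and the lists were chosen with earlier results of these data known. Alternatives were other filters (none, or a mean of at least 3 log2 CPM), normalizations, variance models, a pseudocount of 1 CPM, voom weights, removal of the median of 10 Mb windows, a replicate block and leaving out each tumor, the last also for the pathway lists, chosen after seeing the data.

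The value of 1 marker gene is not reported here.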

Additional observations from a re-analysis of the deposited data

Results flagged for a closer look

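In each group of 4 tumors the highest and lowest value were compared with the rest by Dixon's 95% criterion. Of 80 groups examined 6 were flagged, where chance gives about 4. Among the 10 genes, Myd88 of scr replicate 1 (5.50 log2 CPM, others 5.08 to 5.16) stood apart, and so did Tlr7 relative to the macrophage markers in KO s1 replicate 4 (-2.72, others -3.32 to -3.26). Among the pathway lists, the tumors that stood apart were scr replicate 1 for Tlr5, the 1 tested receptor outside the 10 genes (1.42 log2 CPM, others 0.34 to 0.41), and KO s1 replicate 1 for the brakes on receptor signalling (mean 5.44 log2 CPM, others 5.06 to 5.12). Among the cell type markers, KO s1 replicate 1 was highest for the NK and cytotoxic markers (mean 3.25 log2 CPM, others 1.02 to 1.12) and lowest for the mast cell markers (mean 2.23 log2 CPM, others 4.49 to 4.62).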

How the results depend on the processing

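Tlr2, Tlr3, Tlr7, Tlr8 and Tlr13 kept their call and direction under each of the 17 alternatives run for them, with log2 fold changes of 1.22 to 1.53, 0.99 to 1.26, 0.87 to 1.15, 0.89 to 1.22 and 0.89 to 1.17. The number of the 10 genes called higher was 5 to 8 under the alternatives and 5 to 8 with each tumor left out, and 0 were called lower throughout. Tlr9 lost its call without a filter on low values (adjusted p = 0.129), after quantile normalization (0.0659), without a trend in the variance (0.0597) and with voom weights (0.0533). Myd88 lost its call without a filter (adjusted p = 0.0551). Tlr6 gained a call without a trend (adjusted p = 0.0409) and after removal of the 10 Mb window median (log2 fold change 0.83, adjusted p = 0.0214). Of 100 ratios to markers recomputed with another denominator or without 1 tumor, 15 changed sign, all of them of Tlr3, Tlr8 or Tlr9 and none called. In an alternative chosen after seeing the data, 26 to 31 of the 90 tested pathway genes were called higher and 12 to 15 lower with each tumor left out, against 32 and 13. The losses with single tumors left out stand beside the results. Causes were not tested.

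The replicate numbers did not pair the tumors (correlations of same-numbered deviations from -0.059 to 0.057). With the replicate block 8 of the 10 genes were called higher, Tlr4 being added (adjusted p = 0.0386). Over all tested genes 1882 to 2584 were called higher and 2032 to 2779 lower under the alternatives. Few reads limit Tlr9 and Tlr6, whose counts did not exceed 117 and 87 in any tumor.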

Other observations

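Itgax (CD11c), an integrin subunit of dendritic cells and some macrophages, fell, whereas 11 of 12 macrophage and monocyte markers rose. Its reads were 1603, 1043, 919 and 1199 in the scr tumors and 880, 145, 233 and 282 in the KO s1 tumors, without overlap (log2 fold change -1.89 ± 0.39 SE, adjusted p = 0.00259 in limma), while Itgam (CD11b) rose by 1.36 (adjusted p = 0.000208). It was picked after its values were seen.

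The medians of the genes around the receptors were smaller than the changes of the receptors that rose. Over the tested genes of the 10 Mb window that holds each locus, other than the gene itself, the median log2 fold change was -0.25 around Tlr9, -0.24 around Tlr1 and Tlr6, 0.13 around Tlr2 and 0.08 around Tlr7 and Tlr8.

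Tnip3, an inhibitor of NF-kB signalling, had 1, 8, 0 and 2 reads in the scr tumors and 64, 24, 20 and 24 reads in the KO s1 tumors (log2 fold change 3.95 ± 0.73 SE, adjusted p = 0.00141 in limma), which was 4.63 without scr replicate 2 and 3.33 without scr replicate 3. It was picked after its values were seen and falls below the level set for naming pathway genes. Tnip3 passed the filter of 1 CPM through the KO s1 tumors alone, so that its test depends on the group where it is high.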
